A study of Mus musculus with 2 samples.

Results

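Neural crest, glial and autonomic neuron genes, 34 in number, were described in RNA from hearts of mouse embryos at E13.5. The members were chosen by symbol, as textbook genes of crest-derived cells and neurons, with earlier results of these data known, and all 34 were found among the 55348 gene entries of the deposited count tables. The tables held 1 RNA-seq library from hearts with the genotype Lmna H222P/H222P (called the H222P library below) and 1 from wild-type hearts, both of strain 129sv and both made from total RNA. Lmna encodes lamins A and C of the nuclear envelope, and H222P is a missense mutation, carried here on both alleles, that is used in mice to model laminopathy of heart and muscle. The labels name no drug treatment, transgene or Cre driver. They do not say how many hearts, of which sex, went into each library. With 1 library per genotype there was no replicate check, so no test of the genotypes was made and no p-value is given. The question behind the comparison, as far as the title tells, concerns the histone demethylase LSD1 in this laminopathy.

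The neural crest is a migratory population of embryonic cells that leaves the dorsal neural tube. Its cardiac portion enters the outflow tract of the heart, and the same population gives rise to the neurons and glia of the cardiac ganglia, to sympathetic ganglia and to the enteric nervous system of the gut. Migrating crest cells and glial precursors carry the transcription factors Sox10 and Foxd3, precursors of autonomic neurons carry Phox2a, and the receptor tyrosine kinase Ret with its GFRa co-receptors lets enteric and autonomic precursors respond to GDNF family ligands. Later neurons make neurofilaments, stathmins, Hu RNA-binding proteins and the proteins of secretory granules and synaptic vesicles. Several members are not restricted to these cells. Ncam1 is also made by embryonic heart muscle, and Erbb3 is a receptor of cushion mesenchyme.

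Levels are given as reads and as CPM, which divides reads by library size, scaled between the libraries by TMM factors. Reads on genes numbered 25120790 in the H222P library and 32669225 in the wild-type library, and 3 reads corresponded to 0.113 CPM (H222P) and 0.0968 CPM (wild type). Each ratio is H222P over wild type. Its 95% interval is an exact binomial interval that covers counting error only, not variation between hearts. A gene is called higher or lower where its ratio passed 2-fold, which is 1 on the log2 scale, and its mean over the libraries was at least 1 CPM. In such bulk samples, fewer cells of a type and less RNA per cell cannot be told apart.

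The libraries also differed in transcripts of other tissues. Summed over 20 liver markers, the level was 6575 CPM in the H222P library and 42.4 CPM in the wild-type library, and 19 markers were at least 2-fold higher. The sum of 14 erythroid markers was 2897 CPM (H222P) and 475 CPM (wild type), with 13 higher. In the list of lung and gut mesenchyme, 5 of 15 genes were higher and 0 lower, and the summed level was 381 CPM (H222P) and 224 CPM (wild type). Its highest member was Barx1, a homeobox gene of the stomach mesenchyme, with 1234 reads in the H222P library and 8 in the wild-type library, a log2 ratio of 7.41 (6.51 to 8.71). The other 4 higher genes, chosen after their values were seen, were Nkx2-3 (96 H222P and 1 wild-type reads), Nkx3-2 (80 H222P and 2 wild-type reads), Nkx6-1 (131 H222P and 20 wild-type reads) and Foxf1 (1543 H222P and 451 wild-type reads), all transcription factors of visceral mesenchyme or epithelium. Barx1, Nkx2-3, Nkx3-2 and Nkx6-1 reached the mean of 1 CPM only through the H222P library. Heart muscle markers were all detected above 1 CPM in both libraries, and 8 of 16 were lower by 2-fold or more in the H222P library, where they summed to 17978 CPM, against 34728 CPM in the wild-type library. How much of any difference described here comes with RNA of such other tissues was not tested.

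**Figure D1:**
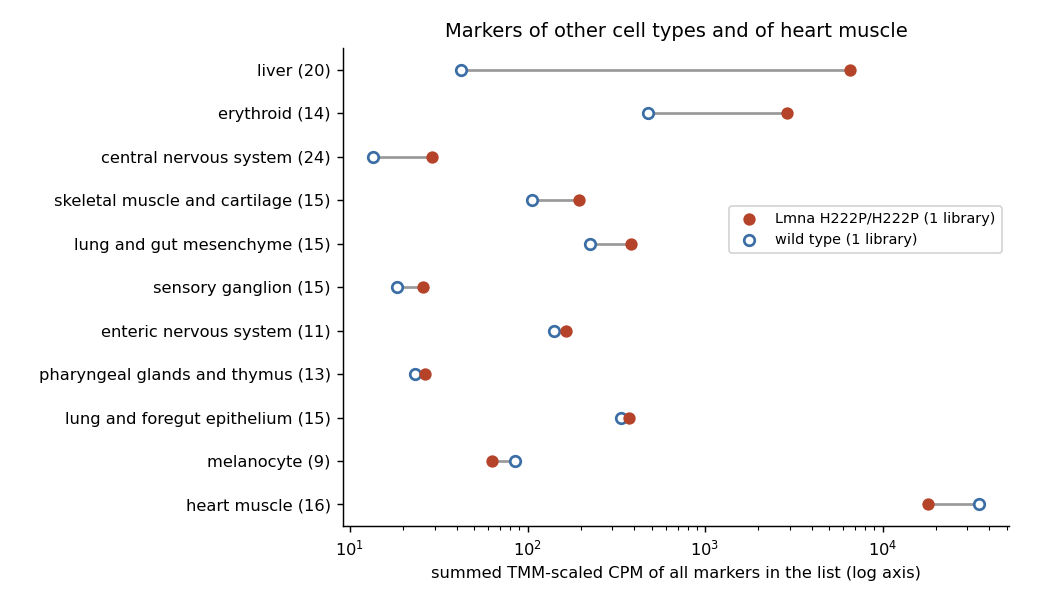
Summed level of each marker list on a log axis, in the Lmna H222P/H222P library (filled points) and the wild-type library (open points), with the number of genes in parentheses. The liver sum was 6575 CPM (H222P) against 42.4 CPM (wild type), the erythroid sum 2897 CPM (H222P) against 475 CPM (wild type), and the heart muscle sum 17978 CPM (H222P) against 34728 CPM (wild type).

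The crest transcription factors Sox10 and Foxd3, the GDNF receptor genes Ret and Gfra1, and the neurite genes Tubb3, Nefm and Dcx were higher in the H222P library, while Gfra2, Stmn2, Gap43 and Uchl1 had log2 ratios between −0.18 and −0.07. Of the 34 members, 26 had a mean of at least 1 CPM. Of these 26, 13 were higher in the H222P library by 2-fold or more, against 5.95% of the 14716 genes tested, and 0 were lower, against 4.35% of genes. The median log2 ratio was 0.96 over the 26 members, 0.91 over all 34 and −0.01 over all genes tested. Scaling by total counts in place of TMM moved the median of all genes to 0.14, with 7.31% of genes higher and 3.05% lower, and 15 members were then higher and 0 lower. For 8 members the whole interval lay above 2-fold (4.05% of genes), and for 0 members it lay below 2-fold (2.35%). The 8 were Foxd3, Ret, Sox10, Tubb3, Nefm, L1cam, Gfra1 and Ngfr.

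Most members are of low abundance, and low genes pass 2-fold more often. Among genes with a mean of 1 to 10 CPM, a range set after the values were seen, 11 of 19 members were higher, against 14.1% of 4489 genes, and 0 were lower, against 8.91%. Sox10, Foxd3, Phox2a and L1cam reached the mean of 1 CPM only through the H222P library, so their difference was built into passing it. With a bound on the wild-type library alone, 1 CPM there, 9 of 22 members were higher (3.48% of 14445 genes) and 0 lower (5.15%). Summed over all 34 members the level was 480.8 CPM in the H222P library and 475.4 CPM in the wild-type library. The 3 most abundant, Ednrb, Ncam1 and Uchl1, all had log2 ratios below 0, and they make up most of that sum. Without any bound on abundance, 16 of the 34 members were higher (17.4% of the 27300 genes with a read) and 0 lower (14.8%).

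Some members overlap other annotated genes. Ambiguous reads form a summary entry apart from the gene counts (2.38% of reads in H222P and 2.53% in wild type), which the sources used here do not define further. On the same strand M21 places a small or predicted gene within Foxd3, Tubb3, Ntrk3, Elavl3, Syt1, Erbb3 and Gap43, and Arhgap4 overlaps L1cam. The members that overlap another gene on the opposite strand are Phox2a (Inppl1), S100b (Dip2a), L1cam (Avpr2), Uchl1 (Uchl1os), Nefl and Nefm (each other), and Gfra1, Ntrk3, Snap25, Syt1 and Ncam1 (predicted genes or genes named by clone). Their values rest on the strand column. Counted without strand, Uchl1 had 892 reads in the H222P library and 1153 in the wild-type library, in place of 1148 H222P and 1494 wild-type reads. The log2 ratio of Uchl1 was −0.15 either way. Nefl had 155 H222P and 95 wild-type reads without strand, in place of 282 H222P and 174 wild-type reads.

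**Figure D2:**
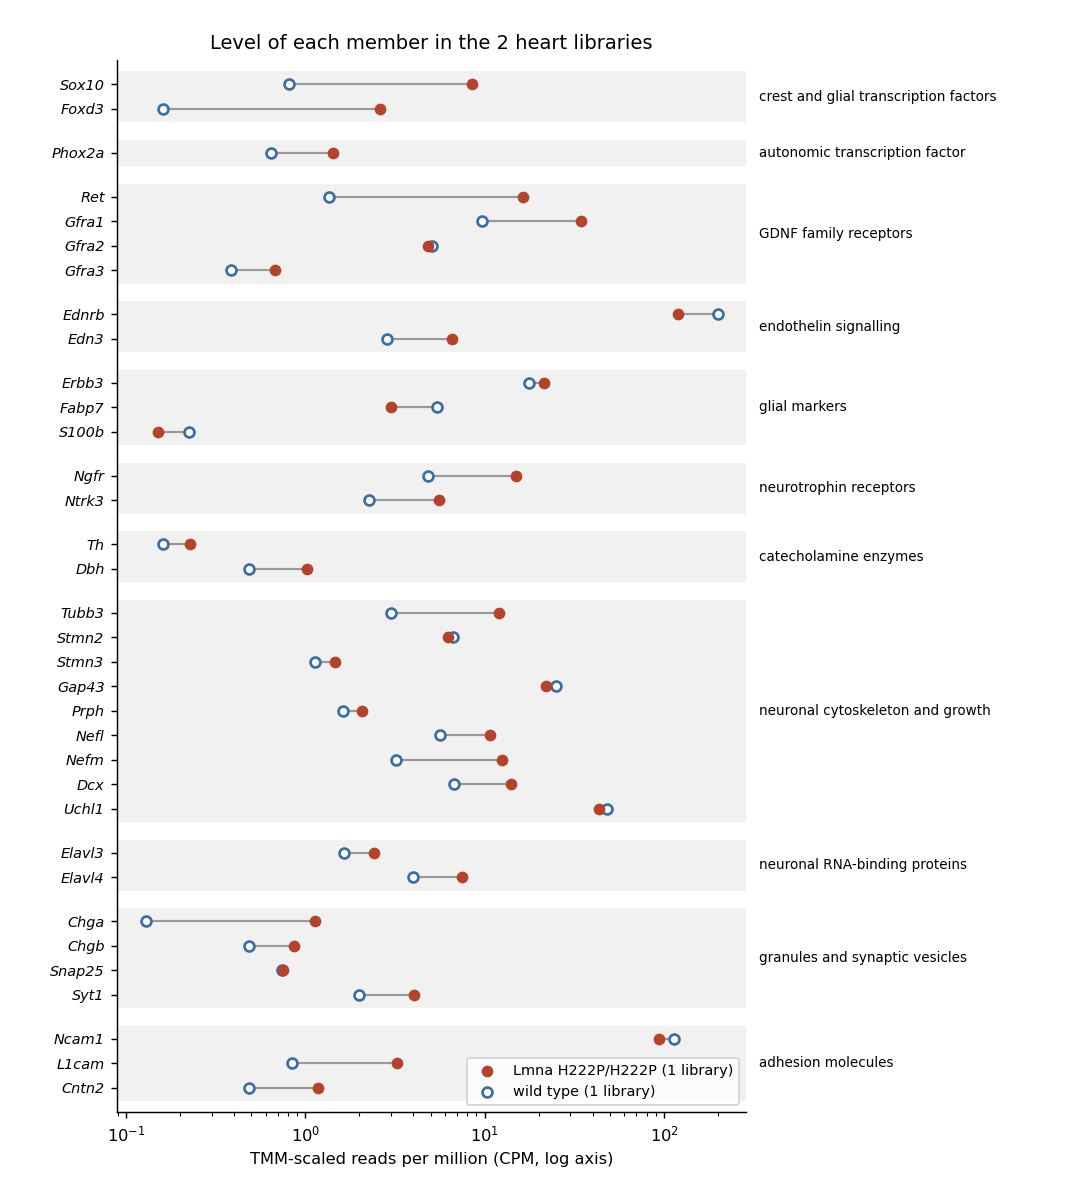
Level of each of the 34 members in CPM on a log axis, in the Lmna H222P/H222P library (filled points) and the wild-type library (open points), grouped by role. The widest gaps belong to Foxd3 (2.60 CPM in H222P against 0.161 CPM in wild type), Ret (16.3 CPM in H222P against 1.36 CPM in wild type) and Sox10 (8.46 CPM in H222P against 0.807 CPM in wild type), while Gfra2, Stmn2 and Snap25 nearly coincide.

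Promoter sequence is shown for 3 members that stand for 3 patterns, the member with the highest ratio (Foxd3), the autonomic transcription factor (Phox2a) and the most abundant member (Ednrb). Each window holds the 250 bases before the RefSeq start (build GRCm38.p6), read 5′ to 3′ on the gene's strand. In Foxd3 (chr4:99656049-99656298, plus strand) the capitals mark the cyclic AMP response element palindrome TGACGTCA. In Phox2a (chr7:101818063-101818312, plus strand) they mark GGACAG, the core of the right arm of the RE1 element bound by the repressor REST. In Ednrb (chr14:103843702-103843951, minus strand) they mark the core of the left arm of RE1, CAGCACC, found as its reverse complement.
Foxd3: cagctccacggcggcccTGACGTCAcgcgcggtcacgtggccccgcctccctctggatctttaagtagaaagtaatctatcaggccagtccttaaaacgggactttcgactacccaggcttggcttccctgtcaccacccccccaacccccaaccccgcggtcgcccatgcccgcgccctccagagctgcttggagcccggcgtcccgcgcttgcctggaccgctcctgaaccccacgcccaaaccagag
Phox2a: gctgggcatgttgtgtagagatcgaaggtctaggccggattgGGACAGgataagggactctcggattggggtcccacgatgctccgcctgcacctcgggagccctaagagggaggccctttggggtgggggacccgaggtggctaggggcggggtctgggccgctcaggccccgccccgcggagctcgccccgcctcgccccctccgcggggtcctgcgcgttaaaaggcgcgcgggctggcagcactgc
Ednrb: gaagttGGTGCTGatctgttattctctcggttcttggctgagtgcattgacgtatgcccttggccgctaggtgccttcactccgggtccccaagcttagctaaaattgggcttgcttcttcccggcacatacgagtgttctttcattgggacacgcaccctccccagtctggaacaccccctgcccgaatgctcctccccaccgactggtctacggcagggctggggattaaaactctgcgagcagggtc
RefSeq windows, which run on to 50 bases after the start, were at hand for 22 of the 34 members, 28 windows in all. Searched on both strands, TGACGTCA was found in 3 of the 28 windows (Chgb, Foxd3 and Th) and in 1.79% of all 32851 windows. CAGCACC was found in 3 windows (7.14% of all), GGACAG in 5 (22.2%), the SOX core ACAAAG in 3 (18.7%), the E-box CANNTG in 20 (72.3%) and the TATA box TATAAA in 5 (13.6%). Among the 58 matches in member windows, 2 overlapped a match of another motif. These are matches of letters and not evidence of binding.

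Sox10, the transcription factor of migrating crest and of all peripheral glia (chromosome 15, 79154908 to 79165240, GENCODE M21 on mm10), had 224 reads, 8.46 CPM, in the H222P library and 25 reads, 0.807 CPM, in the wild-type library. It was 10.3-fold higher (interval 6.92 to 16.6). Foxd3, which maintains multipotent crest precursors (chromosome 4, 99656299 to 99658622), had 69 reads in the H222P library and 5 in the wild-type library, 2.60 CPM (H222P) and 0.161 CPM (wild type). Its log2 ratio of 3.89 was the highest of the members, with an interval of 2.72 to 5.68 that reflects the 5 wild-type reads. Phox2a, which directs noradrenergic and autonomic neuron identity, had 38 reads in the H222P library and 20 in the wild-type library, 2.20-fold higher with an interval of 1.26 to 4.03 that reaches well below 2-fold. The crest factors thus differed far more than the neuronal factor, and all 3 rested on few wild-type reads. Liver, erythroid and stomach mesenchyme transcripts were higher in the same library (liver sum 6575 CPM in H222P against 42.4 CPM in wild type, Barx1 1234 H222P against 8 wild-type reads), and their part in these values was not tested.

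The GDNF receptors did not move as one. Ret, the signalling kinase shared by all GDNF family ligands (chromosome 6, 118151745 to 118197718), had 432 reads in the H222P library and 42 in the wild-type library, 16.3 CPM (H222P) and 1.36 CPM (wild type), and was 11.9-fold higher (8.75 to 16.9). Gfra1, the co-receptor that binds GDNF (chromosome 19, 58235604 to 58455909), had 908 reads in the H222P library and 298 in the wild-type library, 34.3 CPM (H222P) and 9.62 CPM (wild type), and was 3.56-fold higher (3.12 to 4.08). Gfra2, the co-receptor for neurturin, had 128 reads in the H222P library and 157 in the wild-type library, and its log2 ratio of −0.07 (−0.42 to 0.28) took the opposite sign, 0.09, when libraries were scaled by total counts. Gfra3, the co-receptor for artemin, had 18 H222P and 12 wild-type reads, under the mean of 1 CPM. The quotient of Ret to Gfra2 reads does not depend on the scaling: it was 3.38 in the H222P library and 0.268 in the wild-type library, 12.6 times apart (8.38 to 19.1). That of Gfra1 to Gfra2 was 7.09 (H222P) and 1.90 (wild type), 3.73 times apart (2.83 to 4.93). These gene pairs were chosen after the values were seen.

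The ligands showed a like split. Gdnf had 105 reads in the H222P library and 13 in the wild-type library, a log2 ratio of 3.19 (2.40 to 4.20), the highest in the list of ligands and partners. Nrtn, neurturin, had 79 H222P and 224 wild-type reads and a log2 ratio of −1.27 (−1.67 to −0.90), the lowest. Ece1, the enzyme that activates endothelins and the most abundant gene of the list, had 4240 H222P and 5120 wild-type reads and a log2 ratio of −0.05. Of 19 genes that averaged 1 CPM or more, 3 were higher (Gdnf, Gfra4 and Bdnf) and 1 was lower (Nrtn), with a median log2 ratio of 0.34. Over all genes tested, 5.95% were higher and 4.35% lower. With 1 CPM in the wild-type library, 2 of 18 were higher (3.48% of all genes) and 1 lower (5.15%). Pspn, persephin, had 0 reads in the H222P library and 2 in the wild-type library. The mesenchyme gene Barx1, higher in the same library, is a marker of a tissue in which Gdnf is also made, and its part was not tested.

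In endothelin signalling, the receptor and its ligand lay on opposite sides. Ednrb, the endothelin receptor B of crest cells and of vascular and mesenchymal cells, was the most abundant member, with 3172 reads in the H222P library and 6161 in the wild-type library, 119.8 CPM (H222P) and 198.8 CPM (wild type). It was 1.66-fold lower (1.59 to 1.73), short of 2-fold. Edn3, endothelin 3, the ligand that enteric crest and melanocyte precursors require, had 174 reads in the H222P library and 88 in the wild-type library, and was 2.31-fold higher (1.78 to 3.02). Per base of exon, in reads per kilobase and depth (RPKM), Ednrb ranked first of the 34 members in both libraries (28.1 in H222P and 46.6 in wild type).

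The glial markers did not follow Sox10. Erbb3, the neuregulin receptor of Schwann cell precursors and cushion mesenchyme, had 568 reads in the H222P library and 549 in the wild-type library, a log2 ratio of 0.27 (0.10 to 0.45). Fabp7, the brain-type fatty acid-binding protein of immature glia, had 80 H222P and 169 wild-type reads and was 1.80-fold lower (1.38 to 2.39), short of 2-fold. S100b, a calcium-binding protein of later glia, had 4 H222P and 7 wild-type reads, near the limit of detection. The quotient of Sox10 to Fabp7 reads was 2.80 in the H222P library and 0.148 in the wild-type library, 18.8 times apart (11.3 to 32.2), and that of Sox10 to Erbb3 was 0.394 (H222P) and 0.0455 (wild type), 8.65 times apart (5.60 to 13.9).

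Among other Schwann cell genes, 4 of 14 were higher (5.95% of all genes tested) and 1 was lower (4.35%), with a median log2 ratio of 0.13. Gfap, Lgi4 and Cdh19 reached the mean of 1 CPM only through the H222P library. With 1 CPM in the wild-type library, 1 of 11 was higher (Itga4, against 3.48% of all genes) and 1 lower (5.15%). Gfap, an intermediate filament of glia and of enteric glia, was the highest, with 53 reads in the H222P library and 3 in the wild-type library, a log2 ratio of 4.16 (2.74 to 6.69). Mal, a myelin-related membrane protein that epithelia also make, was the lowest, with 11 H222P and 75 wild-type reads and a log2 ratio of −2.49 (−3.61 to −1.62). Cdh2, N-cadherin, the most abundant and also a protein of the heart muscle junctions, had 8683 H222P and 13602 wild-type reads and a log2 ratio of −0.42. The other higher genes were Cdh19, a cadherin of Schwann cell precursors (81 H222P and 26 wild-type reads), Lgi4 (54 H222P and 23 wild-type reads) and Itga4, an integrin also made by blood cells (2031 H222P and 440 wild-type reads). Erythroid markers were higher in the same library (2897 CPM in H222P against 475 CPM in wild type), and their part in the Itga4 value was not tested.

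The neurotrophin receptors were both higher. Ngfr, the p75 receptor of crest cells and Schwann cell precursors (chromosome 11, 95568818 to 95587735), had 395 reads in the H222P library and 150 in the wild-type library, 14.9 CPM (H222P) and 4.84 CPM (wild type), and was 3.07-fold higher (2.55 to 3.74). Ntrk3, the neurotrophin 3 receptor TrkC, had 148 H222P and 70 wild-type reads and was 2.46-fold higher (1.85 to 3.34). Of the pair, Ngfr had an interval wholly above 2-fold.

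Both catecholamine enzymes averaged under 1 CPM. Th, tyrosine hydroxylase, the rate-limiting enzyme of catecholamine synthesis, had 6 reads in the H222P library and 5 in the wild-type library, 0.227 CPM (H222P) and 0.161 CPM (wild type). Dbh, which converts dopamine to noradrenaline, had 27 H222P and 15 wild-type reads, 1.02 CPM (H222P) and 0.484 CPM (wild type), a log2 ratio of 1.05 (0.11 to 2.09) at a mean under 1 CPM. No difference in Th was detectable with these counts.

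**Figure D3:**
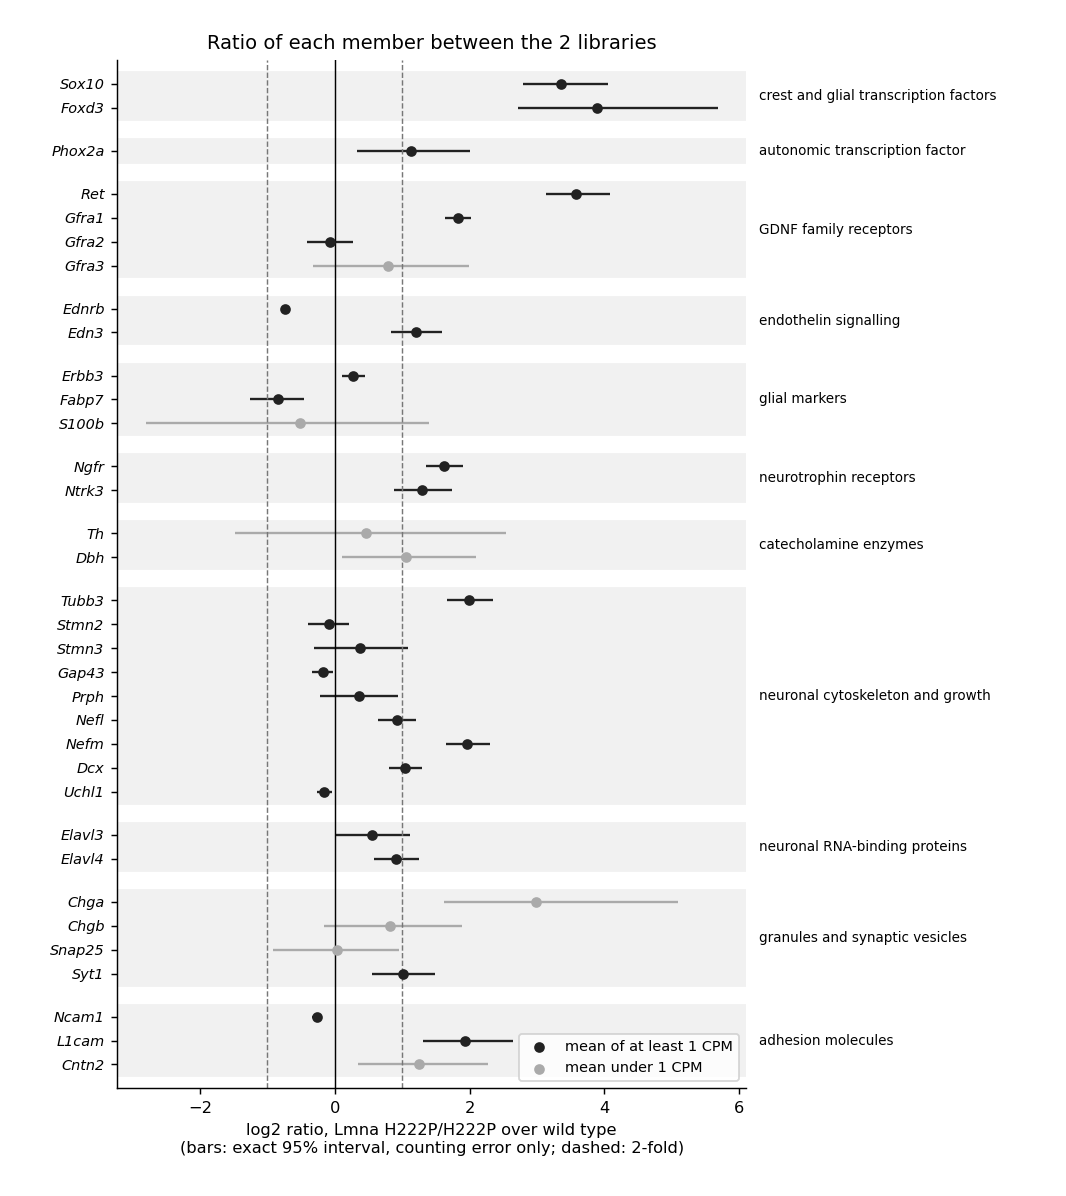
Log2 ratio of each member, Lmna H222P/H222P over wild type, with its 95% interval for counting error and dashed lines at 2-fold. Black points have a mean of at least 1 CPM, grey points less. Foxd3 (3.89), Ret (3.57) and Sox10 (3.36) stand to the right of the rest, and the intervals of Th and S100b span more than 4 log2 units.

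The neuronal cytoskeleton genes divided into a higher and a level set. Tubb3, the neuronal beta-tubulin (chromosome 8, 123411424 to 123422015), had 318 reads in the H222P library and 93 in the wild-type library, 12.0 CPM (H222P) and 3.001 CPM (wild type), and was 3.99-fold higher (3.16 to 5.10). Nefm, the medium neurofilament (chromosome 14, 68082590 to 68124846), had 332 H222P and 99 wild-type reads and was 3.91-fold higher (3.12 to 4.96). Dcx, doublecortin, a microtubule protein of young migrating neurons, had 371 H222P and 210 wild-type reads and was 2.06-fold higher (1.74 to 2.46). Nefl, the light neurofilament, had 282 H222P and 174 wild-type reads and a ratio of 1.89-fold (1.56 to 2.30), short of 2-fold.

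Set beside these, Stmn2, a stathmin of growing axons, had 166 reads in the H222P library and 206 in the wild-type library, a log2 ratio of −0.08 (−0.39 to 0.22), which was 0.07 with total-count scaling. Gap43, the growth cone protein, had 583 H222P and 771 wild-type reads and a log2 ratio of −0.18 (−0.34 to −0.02). Uchl1, a neuronal deubiquitinase, had 1148 H222P and 1494 wild-type reads and a log2 ratio of −0.15 (−0.27 to −0.04). Stmn3, another stathmin, had 39 H222P and 35 wild-type reads and Prph, the peripheral neuron filament peripherin, 55 H222P and 50 wild-type reads, with log2 ratios of 0.38 and 0.36 and intervals that hold 0. In all, 3 of the 9 genes were higher, against 5.95% of all genes tested and 14.1% of those of 1 to 10 CPM, the range that held 6 of the 9. The median log2 ratio of the 9 was 0.38.

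Quotients of reads within a library do not depend on the scaling. These pairs, like those with Sox10 among the glial markers, set a gene already seen to be higher against one that was not, so the quotients are a description only. The quotient of Sox10 to Stmn2 reads was 1.35 in the H222P library and 0.121 in the wild-type library, 11.1 times apart (6.91 to 18.4). That of Tubb3 to Stmn2 was 1.92 (H222P) and 0.451 (wild type), 4.24 times apart (3.08 to 5.85), and that of Nefm to Gap43 was 0.569 (H222P) and 0.128 (wild type), 4.43 times apart (3.44 to 5.75).

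The neuronal RNA-binding proteins of the Hu family lay between the bounds. Elavl4, HuD, had 199 reads in the H222P library and 124 in the wild-type library, a log2 ratio of 0.91 (0.58 to 1.24). Elavl3, HuC, had 64 H222P and 51 wild-type reads and a log2 ratio of 0.55. Of the granule and vesicle genes, Chga, chromogranin A of dense-core granules, had 30 reads in the H222P library and 4 in the wild-type library, a log2 ratio of 2.99 (1.63 to 5.10) at a mean under 1 CPM. Chgb, chromogranin B, had 23 H222P and 15 wild-type reads, and Snap25, a SNARE protein of synaptic exocytosis, 20 H222P and 23 wild-type reads. Syt1, the calcium sensor of synaptic vesicles, had 107 H222P and 62 wild-type reads and was 2.01-fold higher (1.46 to 2.81), the member closest to the 2-fold bound. It stood at a log2 ratio of 0.98 with DESeq2 size factors.

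Among the adhesion molecules, Ncam1 was abundant and L1cam and Cntn2 rare. L1cam, an axonal adhesion protein also required by enteric crest precursors (chromosome X, 73853778 to 73896105), had 86 reads in the H222P library and 26 in the wild-type library, 3.25 CPM (H222P) and 0.839 CPM (wild type), and was 3.82-fold higher (2.47 to 6.25). Ncam1 had 2490 H222P and 3505 wild-type reads, 94.0 CPM (H222P) and 113.1 CPM (wild type), a log2 ratio of −0.27 (−0.34 to −0.19). Cntn2, the axonal protein TAG-1, had 31 H222P and 15 wild-type reads and a log2 ratio of 1.25 (0.34 to 2.27) at a mean under 1 CPM. Heart muscle markers, whose tissue also makes Ncam1, were lower in the same library (17978 CPM in H222P against 34728 CPM in wild type), and their part in the Ncam1 value was not tested.

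Per base of exon, Ednrb, Uchl1, Gap43 and Ncam1 were the 4 highest members in both libraries, in that order. Uchl1 stood at 26.6 RPKM in the H222P library and 29.5 in the wild-type library, Gap43 at 14.4 (H222P) and 16.3 (wild type), and Ncam1 at 10.8 (H222P) and 13.1 (wild type). Below them the order differed. Sox10 ranked 10 in the H222P library (2.77 RPKM) and 20 in the wild-type library (0.264). Ret ranked 12 in the H222P library (2.41) and 23 in the wild-type library (0.200). Foxd3 ranked 18 in the H222P library (1.12) and 31 in the wild-type library (0.0694). Exon lengths were the union over all annotated transcripts, so genes with long alternative ends, such as Ntrk3, rank lower than their main transcript would.

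**Figure D4:**
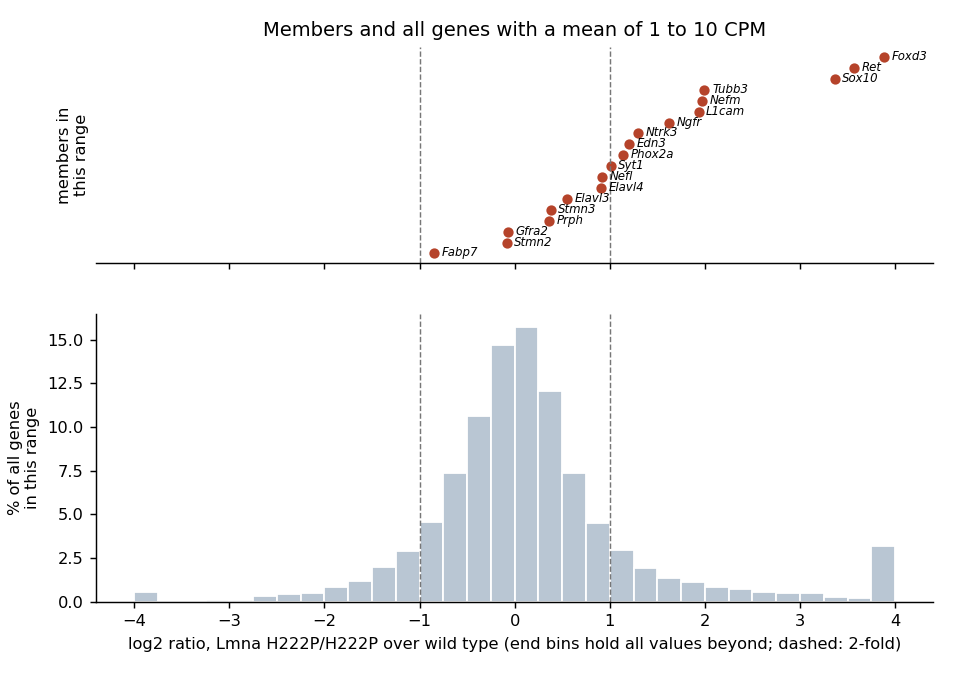
Members (points, upper panel) and all genes (bars, lower panel) with a mean of 1 to 10 CPM, by log2 ratio of Lmna H222P/H222P over wild type, with dashed lines at 2-fold and end bins that hold all values beyond. In this range 11 of 19 members and 14.1% of 4489 genes passed 2-fold on the higher side.

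Related genes outside the members were read from lists that, like the members, were written with earlier results of these data known. Of 15 other autonomic neuron genes that averaged 1 CPM or more, 8 were higher (5.95% of all genes tested) and 1 was lower (4.35%). Their median log2 ratio was 1.35. That median turned to −0.01 over the 11 genes with 1 CPM or more in the wild-type library. Of these 11, 3 were higher (3.48% of all genes) and 2 lower (5.15%). Ddc, the decarboxylase of catecholamine and serotonin synthesis, was the lowest, with 692 H222P and 3485 wild-type reads and a log2 ratio of −2.10 (−2.23 to −1.99).

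Higher genes of that list, named after their values were seen, included Tlx2, a homeobox gene of enteric neurons (62 H222P and 20 wild-type reads), and Nos1, neuronal nitric oxide synthase (69 H222P and 15 wild-type reads). They also included Isl1, which heart progenitors also make (606 H222P and 148 wild-type reads), the nicotinic receptor gene Chrna3 (45 H222P and 10 wild-type reads), Insm1 (52 H222P and 7 wild-type reads) and Ache (195 H222P and 89 wild-type reads). Hand2, a factor shared by autonomic neurons and heart and the most abundant of the list by its mean, had 1898 H222P and 2352 wild-type reads and a log2 ratio of −0.08. Sst, somatostatin, had 1 read in the H222P library and 0 in the wild-type library. The list of enteric nervous system markers shares genes with the list of autonomic neurons. Of 9 that averaged 1 CPM or more, 4 were higher (5.95% of all genes tested), Nos1 and Tlx2 among them, and 0 lower (4.35%). With 1 CPM in the wild-type library, 1 of 6 was higher (3.48% of all genes) and 0 lower (5.15%). Of all 11 markers, 0 were at 0 reads in either library, and the summed level was 163.8 CPM (H222P) and 140.9 CPM (wild type).

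Other crest specifiers had 6 of 12 higher (5.95% of all genes tested) and 0 lower (4.35%), with a median log2 ratio of 0.88. Dlx2, Sox8 and Msx2 reached the mean of 1 CPM only through the H222P library. With 1 CPM in the wild-type library, 3 of 9 were higher (3.48% of all genes) and 0 lower (5.15%), with a median of 0.58. Dlx2, a homeobox gene of pharyngeal arch crest, was the highest (51 reads in the H222P library and 7 in the wild-type library, log2 ratio 3.01, 1.94 to 4.48). Mycn, a MYC family factor of many embryonic tissues, was the lowest of the 12 (1638 H222P and 1994 wild-type reads, −0.06), and Ets1, also an endothelial factor, the most abundant (2920 H222P and 3517 wild-type reads, −0.04). Sox8, a close relative of Sox10, had 84 H222P and 24 wild-type reads and a log2 ratio of 2.01 (1.36 to 2.75). Among genes under the mean of 1 CPM, Pax7 had 8 reads in the H222P library and 0 in the wild-type library. Zic1, also under that mean, lay the other way, with 3 H222P and 24 wild-type reads and a log2 ratio of −2.58 (−5.15 to −1.05). The other higher genes were Sox9, Twist1, Msx2 and Crabp1, named after their values were seen.

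Other pan-neuronal genes were closer to level, with a median of 0.45. Of 28, 8 were higher (5.95% of all genes tested) and 1 lower (4.35%). With 1 CPM in the wild-type library, 5 of 24 were higher (3.48% of all genes) and 1 lower (5.15%). Scg3, of secretory granules, was the highest (42 reads in the H222P library and 14 in the wild-type library, log2 ratio 1.78, 0.91 to 2.80). Stmn4, a stathmin, was the lowest (114 H222P and 371 wild-type reads, −1.47, −1.79 to −1.17). Dpysl3, a growth cone protein that mesenchyme also makes, was the most abundant (11663 H222P and 22529 wild-type reads, −0.72).

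The repressor REST, which silences neuronal genes in other tissues together with CoREST and LSD1, was measured as well. Rest had 2516 reads in the H222P library and 2555 in the wild-type library, a log2 ratio of 0.20 (0.12 to 0.28), and Kdm1a, the gene of LSD1, stood at 0.19 (0.13 to 0.26). Hdac2, the most abundant of the 10 genes in the list, had a log2 ratio of −0.22, and Rcor3 the lowest, −0.41. Insm1, a neuroendocrine factor, was the only one of the 10 past 2-fold (3.03, 1.97 to 4.50). Over all genes tested, 5.95% were higher and 4.35% lower. Insm1 reached the mean of 1 CPM only through the H222P library (52 H222P and 7 wild-type reads). With 1 CPM in the wild-type library, 0 of 9 genes were higher (3.48% of all genes) and 0 lower (5.15%).

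**Figure D5:**
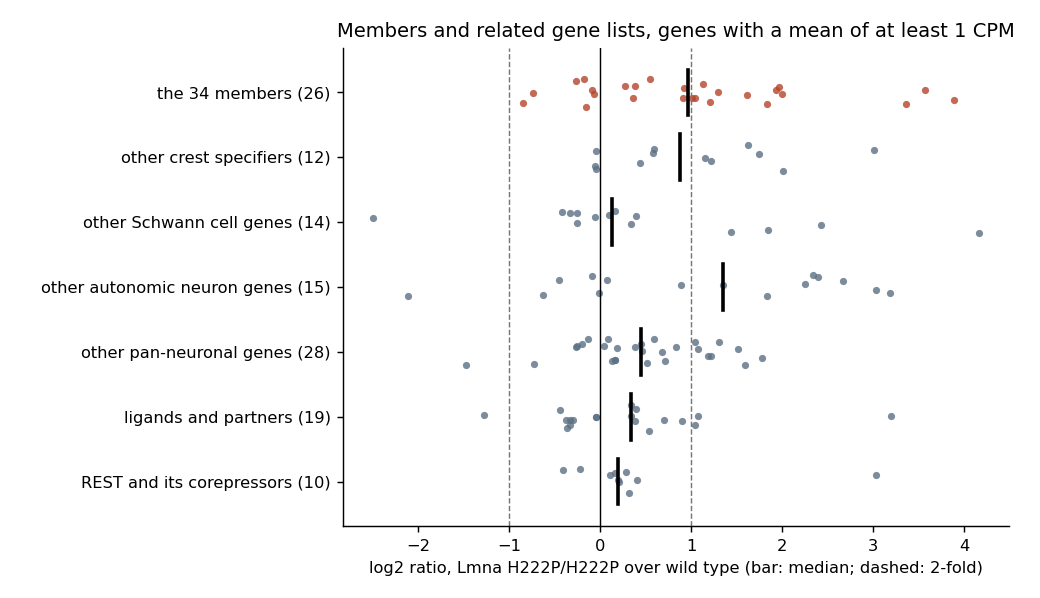
Log2 ratio, Lmna H222P/H222P over wild type, of each gene that averaged 1 CPM or more in the members and in 6 related lists, with a bar at each median and the number of genes in parentheses. Medians are 0.96 for the members, 0.88 for other crest specifiers, 0.13 for other Schwann cell genes, 1.35 for other autonomic neuron genes and 0.45 for other pan-neuronal genes.

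Markers of other neural tissue were sparse. Of 24 central nervous system markers, 6 had 0 reads in the H222P library and 10 in the wild-type library, and the summed level was 28.9 CPM (H222P) against 13.6 CPM (wild type). Sox1, Olig2, Otx2, En2, Neurod2 and Neurog2, defining genes of brain and spinal cord, had 0 reads in both libraries. Of the 24 markers, 3 had a mean of at least 1 CPM, and 2 of them were higher, Lhx2 (231 H222P and 14 wild-type reads) and Sox2 (174 H222P and 93 wild-type reads), both also made outside the nervous system. Lhx2 reached that mean only through the H222P library. For these and the lists that follow, 5.95% of all genes tested were higher and 4.35% lower. Of 15 sensory ganglion markers, 3 (Neurog1, Prdm12 and Trpv1) had 0 reads in both libraries, 1 of the 4 tested was higher (Runx1, also a blood gene), and the sum was 25.9 CPM (H222P) against 18.3 CPM (wild type). Of 9 melanocyte markers, Tyrp1 had 0 reads in both libraries and neither of the 2 tested passed 2-fold, with sums of 63.4 CPM (H222P) and 84.6 CPM (wild type). The 2 tested, Mitf (34.5 CPM in H222P and 59.1 CPM in wild type) and Kit (27.6 CPM in H222P and 23.4 CPM in wild type), made up most of each sum. The other melanocyte markers averaged under 1 CPM. Lung and foregut epithelium markers had 1 of 14 higher and 2 lower (373 CPM in H222P against 336 CPM in wild type), skeletal muscle and cartilage markers 3 of 8 higher and 1 lower (194 CPM in H222P against 106 CPM in wild type), and pharyngeal gland and thymus markers 0 of 5 past 2-fold (26.4 CPM in H222P against 23.3 CPM in wild type).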

How the data were processed

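RNA of E13.5 mouse hearts was measured by RNA-seq in 1 Lmna H222P/H222P and 1 wild-type library, grouped by the genotype label. The authors deposited raw read counts for each gene, without normalization, for both strands together and each strand alone. The submitters' processing notes name STAR, HTSeq, DESeq and the build mm10, without versions or roles, and the sources used here do not give the annotation release. The reverse-strand column, which held 20.5 times (H222P) and 19.3 times (wild type) the reads of the other strand, was used. Reads on genes were 82.0% and 82.8% of each table, and the summary entries (unmapped, multiply mapped, outside genes, ambiguous) were left out.

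Counts were scaled by TMM (edgeR 4.0.16, R 4.3.3), with factors of 1.05 for H222P and 0.948 for wild type. Log2 ratios used a prior count of 0.5, and exact binomial 95% intervals came from scipy 1.17.1. The labels name no molecular identifiers, so reads are not independent molecules and the intervals and floors cover counting error only. No test was possible with 1 library per group. The members, the lists and the 2-fold rule were chosen with earlier results of these data known. All members are named, and of each other list the most abundant, highest and lowest gene and genes at 0 reads, with further genes marked as chosen after their values were seen. Of the listed symbols, 2 (Drgx and Ahsp) had no entry and were not analysed here. Some genes of the lists are not reported here by name. Positions are from GENCODE M21, and promoter sequences from RefSeq. The steps were tested on simulated data. As alternatives, size factors from DESeq2 1.42.0, total counts, other filters, a prior count of 5, unstranded counts, thinning, scaling without liver and erythroid genes, and a 1.5-fold bound were tried.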

Additional observations from a re-analysis of the deposited data

Results flagged for a closer look

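Reads on the strand opposite to the counted one were higher for 2 members in the H222P library than in the wild-type library, beyond counting error. Nefm had 143 such reads in the H222P library and 79 in the wild-type library, a log2 ratio of 1.08 with a lower bound of 0.68. The counted strand stood at 1.97 for Nefm and at 0.92 for Nefl. Nefl had 9 such reads in the H222P library and 2 in the wild-type library and a log2 ratio of 2.15 (0.12 to 5.65). GENCODE M21 places Nefl within the span of Nefm on the opposite strand, so reads of Nefl can fall on the opposite strand of Nefm. Without strand, Nefl had 155 H222P and 95 wild-type reads, in place of 282 H222P and 174 wild-type reads. The part of Nefl in the opposite-strand reads of Nefm was not tested.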

How the results depend on the processing

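The count of members at least 2-fold higher was 13 of 26. It ranged from 11 (deeper library thinned) to 16 of 34 (no filter on low counts) under the other alternatives, except for 9 of 22 with 1 CPM or more in the wild-type library and 6 of 14 with a mean of at least 5 CPM (3.35% of all genes there). That last filter removes Sox10 and Foxd3, among others. At a bound of 1.5-fold, 15 members were higher (10.9% of all genes) and 2 lower (Ednrb and Fabp7, against 11.4% of all genes), where 0 were lower at 2-fold. The median log2 ratio of the members was between 0.73 and 1.14. Total-count scaling moved the median of all genes from −0.01 to 0.14 and the split over all genes from 876 higher and 640 lower to 1076 and 449. Of 204 member values under 6 alternatives, 201 stayed within their counting interval, 0 called values changed sign, and 3 moved, all with total counts (Ednrb −0.58, Ncam1 −0.11, Uchl1 −0.001). The uncalled members Gfra2, Stmn2 and Snap25 lay on either side of 0 depending on the scaling, thinning or prior count. The median of the other autonomic neuron genes turned to −0.009 over genes with 1 CPM or more in the wild-type library and to −0.046 over genes that averaged 5 CPM or more, as fewer genes were tested. No paired analysis was possible because each group had 1 library. Depth limits Th, S100b, Gfra3, Chgb, Snap25, Phox2a, Chga, Dbh, Cntn2 and Stmn3, all under 40 reads in each library. Of these, Phox2a was called higher.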
